A study of Mus musculus with 40 samples.

Results

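The 8 genes described here place, remove or act on acetyl groups on histones. They comprise 3 acetyltransferases (Ep300, Crebbp and Kat2b), 4 histone deacetylases (Hdac3 of class I, and Hdac4, Hdac7 and Hdac9 of class IIa) and the corepressor Ncor1. They were chosen by name, as 8 of the 15183 protein-coding genes that had an H3K27ac peak in at least 3 of 24 libraries, and all 8 had a peak in all 24. None of the 8 only reads acetyl marks. Ep300, Crebbp and Kat2b carry a bromodomain, the module that binds acetylated lysine, beside their catalytic domain, and Ncor1 has no such module. The libraries are ChIP-seq of H3K27ac, acetylated lysine of histone H3 at active promoters and enhancers. The cells were preadipocytes from inguinal white adipose tissue of wild-type (WT) C57BL/6 mice and of C57BL/6 mice without HMGN1 and HMGN2, proteins that bind nucleosomes (DKO). They were grown on plates coated with collagen and induced towards brown-like adipocytes with insulin, dexamethasone, IBMX, T3 and rosiglitazone, then kept in insulin and T3. Each genotype was sampled at days 0, 3, 6 and 9, with 3 libraries in each of the 8 groups, and the study's methods give the age of the mice as 8 to 12 weeks. The labels number the replicates without saying whether they came from separate mice or cultures, so every p-value measures only the spread between these libraries.

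EP300 and CREBBP are the paralogous enzymes that acetylate H3K27 itself, as coactivators of many transcription factors, and KAT2B (PCAF) acetylates other lysines of histone H3 in the SAGA and ATAC complexes. HDAC3 is the catalytic subunit of the NCOR1 corepressor complex, which holds nuclear receptors such as PPARG in a repressed state, and in brown fat it is also needed for thermogenic gene expression. Class IIa deacetylases have little activity of their own, bind MEF2 factors and bring in the HDAC3 complex, and HDAC9 is known as a brake on the differentiation of preadipocytes.

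The measure is the length of a gene's window that lay under the peaks of a library, in kb, a window being the span of the gene and the 5 kb before its start (build mm10, GENCODE annotation). Ep300 spans chr15:81585351-81652077 on the plus strand, Crebbp chr16:4081328-4213997 on the minus strand and Kat2b chr17:53566861-53672720 on the plus strand. Hdac3 spans chr18:37935844-37955016, Hdac4 chr1:91928779-92195699, Hdac7 chr15:97792664-97844502, Hdac9 chr12:34047580-34917095 and Ncor1 chr11:62316426-62458541, all on the minus strand. The windows of Hdac3 (Rell2, Fchsd1), Hdac7 (Slc48a1) and Ncor1 (Ttc19, Pigl) also hold parts of other coding genes, and peaks there cannot be assigned to one gene. Besides covered length, the fold enrichment of the strongest peak over its local background and the rank of that peak by q-value among all peaks of its library (rank 1 the strongest) were followed. Because whole cultures were measured, fewer cells with the mark and less of the mark per cell cannot be told apart.

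Libraries differed in what was called in them. They held 47448 to 115923 peaks over 20.7 to 96.4 Mb, the fewest in DKO day 6 replicate 3, and DKO day 0 replicate 2 had the widest peaks, with a median of 1076 bp. Reads were not counted, and the background of each library was estimated from the fold and p-value of its peaks. By this estimate the shallowest library was WT day 3 replicate 3, with 4.5 reads per kb. Hmgn2 had a peak in each of the 12 WT libraries and in 0 of the 12 from DKO (covered length lower by 1.38 kb, exact permutation test, adjusted p 0.0190). The 6 adipocyte markers, which include Pparg and Adipoq, together had 9.07 to 11.5 kb under peaks in WT at day 0 and 65.2 to 70.7 kb at day 6, where the DKO libraries reached 45.3 to 64.4 kb. At day 9 the order was the reverse, WT having 47.2 to 56.5 kb and DKO 71.8 to 76.5 kb. The gap in the sum at day 6 was not shared by all 6 markers. On that day Pparg (mean difference of −8.29 kb) and Lipe (−1.43 kb) were lower in DKO without overlap. Cebpa, Fabp4, Adipoq and Plin1 overlapped between genotypes, their differences running from −0.750 kb (Plin1) to −0.0327 kb (Adipoq). Of the 4 markers of brown-like fat, Ucp1 had no peak in any library and Cidea, Prdm16 and Ppargc1a had one in 19, 22 and 24. Together these had 1.34 to 1.78 kb in WT at day 0, at day 6 4.81 to 6.31 kb for WT against 2.31 to 4.21 kb for DKO, and at day 9 3.08 to 4.96 kb against 5.30 to 7.30 kb. The 5 preadipocyte markers together had 29.8 to 34.6 kb in WT at day 0. This sum came from Pdgfrb (mean 17.8 kb), Pdgfra (10.4 kb) and Ly6a (4.52 kb). Cd34 had no peak at day 0 and gained the mark later, with a mean of 0.739 kb in WT at day 9. Dlk1 had a peak in only 3 of the 24 libraries. At day 6 the sum of the 5 was up to 31.1 kb for WT, without overlap with the 10.6 to 15.6 kb for DKO. At day 9 this sum overlapped between genotypes, with 29.4 to 34.1 kb for WT and 30.3 to 34.6 kb for DKO. The 3 immune markers summed to 8.22 to 8.83 kb for WT and 11.3 to 23.7 kb for DKO at day 0. The 3 endothelial markers were separate as well, at 4.62 to 5.75 kb for WT and 6.07 to 13.3 kb for DKO. On that day the ratio of DKO to WT means was 1.28 in the median gene. The part of these differences between libraries in the results below was not tested, except where a value scaled to the library is given.

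The 8 genes differed widely in how much of their window carried the mark. In the median library, peaks covered 34.6% of the Hdac7 window and 14.2% of the Kat2b window, but 5.37% at Hdac3, 4.58% at Ep300, 3.06% at Hdac4, 2.69% at Ncor1, 1.54% at Crebbp and 0.974% at Hdac9. In all 24 libraries the strongest peak lay within 1 kb of an annotated transcript start for Ep300, Crebbp, Kat2b, Hdac3, Hdac4 and Ncor1. For Hdac7 this held in 11 libraries and for Hdac9 in 0. The start of Hdac4 and that of Hdac9 given by RefSeq are shown. Among the class IIa genes these were the extremes in the number of libraries with the strongest peak near a transcript start. Hdac7 exceeded both in G or C, at 74.0%. The GC box, CCAAT box and TATA box are in capitals, on the strand of the gene.
Hdac4, chr1:92180342-92180591, minus strand, GRCm38.p6: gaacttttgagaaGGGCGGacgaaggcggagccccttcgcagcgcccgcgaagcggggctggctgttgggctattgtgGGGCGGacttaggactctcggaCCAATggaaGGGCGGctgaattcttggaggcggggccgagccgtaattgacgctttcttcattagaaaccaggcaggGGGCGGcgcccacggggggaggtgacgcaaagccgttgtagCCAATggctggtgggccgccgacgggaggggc
Hdac9, chr12:34917096-34917345, minus strand, GRCm38.p6: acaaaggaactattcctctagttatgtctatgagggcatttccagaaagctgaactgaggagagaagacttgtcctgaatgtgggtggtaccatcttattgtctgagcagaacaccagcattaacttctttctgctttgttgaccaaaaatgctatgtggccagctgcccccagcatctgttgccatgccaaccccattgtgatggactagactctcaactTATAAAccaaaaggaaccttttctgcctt
The 250 bases before the Hdac4 start are 65.2% G or C with 23 CpG, 4 GC boxes and 2 CCAAT boxes, and peaks of all 24 libraries lay on either side of them, while a peak reached into the stretch itself in 1 library. This RefSeq start lies inside the longer GENCODE span. The 250 bases before the Hdac9 start are 44.4% G or C with 0 CpG, no GC box and 1 TATA box, and no library had a peak over them. Over 27025 RefSeq promoters the median was 52.0% G or C and 6.00 CpG, and 32.9% held a GC box, spelt GGGCGG, 34.5% a CCAAT box, 13.0% a TATA box, spelt TATAAA, and 1.62% the cyclic AMP response element TGACGTCA, read on both strands. Of the 7 members with a RefSeq promoter entry, 4 held a GC box, 2 a CCAAT box, 1 a TATA box and 0 the cyclic AMP element.

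**Figure D1:**
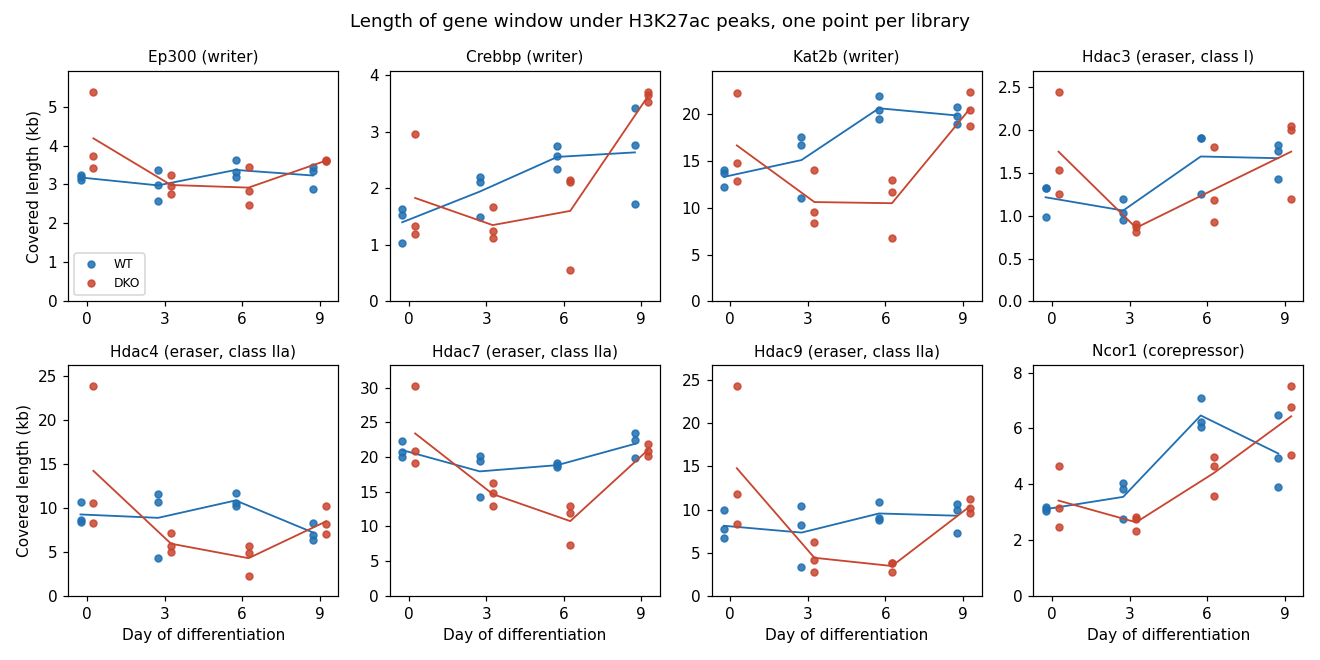
Covered length in kb (vertical axis, from 0) at each of the 8 genes against the day of differentiation, one point per library, WT in blue and DKO in red, with lines through the group means. At day 6 the 3 DKO libraries lie below the 3 WT libraries for Crebbp, Kat2b, Hdac4, Hdac7, Hdac9 and Ncor1, and the highest DKO point of day 0 is replicate 2 in every panel.

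Ep300 had 2.48 to 5.38 kb under peaks over the 24 libraries, and its mean was lower at day 3 than at day 0 by an amount that missed the adjusted threshold (−0.699 kb, exact permutation test, p 0.0400, adjusted p 0.0994). At day 0, Ep300 had 3.11, 3.18 and 3.25 kb covered in WT and 3.43, 5.38 and 3.74 kb in DKO. At day 3, Ep300 had 2.99, 3.37 and 2.57 kb in WT and 2.96, 3.24 and 2.76 kb in DKO. The DKO libraries were all higher at day 0, and the genotypes overlapped at day 3. At day 6, Ep300 had 3.31, 3.19 and 3.62 kb in WT and 2.84, 3.44 and 2.48 kb in DKO. At day 9, Ep300 had 2.89, 3.46 and 3.34 kb in WT and 3.64, 3.60 and 3.60 kb in DKO, again with every DKO library above every WT library. Nearly all of this length came from 1 region at the start, chr15:81584331-81588616, called in all 24 libraries with a median −log10 q of 71.8. The strongest peak there had a fold of 14.8 to 30.1 and ranked between 551 and 3981. At day 0 its fold was 18.5, 14.8 and 18.5 in WT and 23.8, 21.9 and 26.1 in DKO, without overlap.

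Crebbp, the paralog of Ep300, carried a weaker mark that lengthened with time. At day 0, Crebbp had 1.53, 1.64 and 1.03 kb in WT and 1.19, 2.96 and 1.34 kb in DKO. At day 3, Crebbp had 2.21, 2.12 and 1.5 kb in WT and 1.13, 1.25 and 1.67 kb in DKO. These groups overlapped on both days. At day 6, Crebbp had 2.58, 2.34 and 2.75 kb in WT and 2.14, 2.11 and 0.554 kb in DKO. At day 9, Crebbp had 1.73, 2.76 and 3.42 kb in WT and 3.71, 3.52 and 3.65 kb in DKO. The DKO libraries lay below WT at day 6 and above it at day 9. Near the start the mark sat in a pair of regions either side of it, chr16:4211899-4213438 and chr16:4213937-4214938, both called in all 24 libraries. At day 0 the mean length near a transcript start was 1.14 kb in WT and 1.32 kb in DKO. Farther than 1 kb from one it was 0.257 and 0.514 kb. At day 9 the means near a start were 1.41 and 1.62 kb, and those farther away 1.22 and 2.01 kb. The strongest peak of Crebbp ranked between 4500 and 18890, and at day 6 its fold was 15.6, 16.3 and 19.8 in WT and 10.6, 10.5 and 9.63 in DKO.

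Kat2b carried the broadest mark of the writers, mostly inside the gene, with a median of 12.9 kb farther than 1 kb from any of its transcript starts and 2.98 kb near one. At day 0, Kat2b had 12.2, 14.0 and 13.7 kb in WT and 12.9, 22.3 and 14.8 kb in DKO. At day 3, Kat2b had 17.6, 16.7 and 11 kb in WT and 8.34, 14.0 and 9.50 kb in DKO. The genotypes overlapped on both days. At day 6, Kat2b had 20.5, 19.5 and 21.9 kb in WT and 13.0, 11.7 and 6.77 kb in DKO. At day 9, Kat2b had 19.0, 20.8 and 19.8 kb in WT and 22.4, 20.5 and 18.7 kb in DKO. No DKO library of day 6 came near the WT libraries, whereas at day 9 the groups overlapped. The summit of the Kat2b region with the smallest p by genotype and that of a region gained by day 9 are shown, as the plus strand around the position with the highest −log10 q.
Kat2b intron, chr17:53577704-53577804, GRCm38.p6: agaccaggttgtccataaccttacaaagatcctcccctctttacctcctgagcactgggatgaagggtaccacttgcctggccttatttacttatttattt
Kat2b internal start, chr17:53644007-53644107, GRCm38.p6: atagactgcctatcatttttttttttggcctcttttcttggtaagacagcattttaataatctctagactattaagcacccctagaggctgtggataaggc
The first summit lies 10.9 kb into the gene, in a region that all 12 WT libraries and 7 of the DKO libraries called. The other lies 77.2 kb into the gene, in a region without a call at day 0 and with one in all 6 libraries at day 9.

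Hdac3, the class I deacetylase of the corepressor complex, had the shortest mark. At day 0, Hdac3 had 0.990, 1.33 and 1.33 kb in WT and 1.26, 2.45 and 1.54 kb in DKO. At day 3, Hdac3 had 1.2, 1.03 and 0.955 kb in WT and 0.864, 0.900 and 0.815 kb in DKO, the one day on which the DKO libraries were all lower. At day 6, Hdac3 had 1.26, 1.91 and 1.91 kb in WT and 1.18, 1.81 and 0.930 kb in DKO. At day 9, Hdac3 had 1.43, 1.83 and 1.76 kb in WT and 2.05, 2.0 and 1.2 kb in DKO. The groups overlapped on the other 3 days. One promoter region, called in all 24 libraries and shared with the start of Rell2, held most of it, and its strongest peak ranked between 2578 and 10941. Its mean rank was 6882 in WT and 3663 in DKO at day 3 and 7106 and 3414 at day 6, days on which the DKO lists were shorter on average, and both its fold and its rank as a percent of the library's peaks overlapped between genotypes on these days.

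Hdac4, a class IIa enzyme, had the strongest single peak of the 8 genes in the median library, ranked between 98 and 1928 over all libraries, and 49 regions over its window of 272 kb. At day 0, Hdac4 had 8.40, 10.7 and 8.63 kb in WT and 8.29, 23.8 and 10.5 kb in DKO. At day 3, Hdac4 had 10.7, 11.6 and 4.28 kb in WT and 5.64, 7.11 and 5.03 kb in DKO. The highest value of day 0 was the DKO library with wide peaks and the lowest WT value of day 3 the shallow library. At day 6, Hdac4 had 10.6, 10.2 and 11.7 kb in WT and 5.65, 4.91 and 2.28 kb in DKO. At day 9, Hdac4 had 6.33, 8.32 and 6.91 kb in WT and 10.2, 6.99 and 8.19 kb in DKO. WT lay above DKO without overlap at day 6, and the groups overlapped at day 9. The fold of its strongest peak, at a transcript start, differed on the other day: it overlapped between genotypes at day 6, and at day 9 it was 19.1, 21.7 and 21.2 in WT and 36.4, 31.7 and 30.4 in DKO. In WT at day 9 the strongest peaks of Ncor1 and Ep300 stood before it, with mean ranks of 727 and 1127 against 1388. An intronic summit called only in WT is shown.
Hdac4 intron, chr1:92130932-92131032, plus strand, GRCm38.p6: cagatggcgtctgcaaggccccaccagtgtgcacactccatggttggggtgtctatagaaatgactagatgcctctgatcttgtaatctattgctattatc
It lies 64.7 kb into the gene, in a region that 5 WT libraries called (1 at day 0, 2 at day 3 and 2 at day 6) and 0 of the DKO libraries.

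Hdac7 had the densest mark, with 5 regions called in all 24 libraries. At day 0, Hdac7 had 20, 22.3 and 20.7 kb in WT and 19.2, 30.2 and 20.8 kb in DKO. At day 3, Hdac7 had 20.1, 19.5 and 14.2 kb in WT and 12.9, 16.3 and 14.8 kb in DKO. At day 6, Hdac7 had 18.6, 18.8 and 19.1 kb in WT and 12, 13.0 and 7.31 kb in DKO. The WT libraries of day 6 were close together, and each DKO library lay below them. At day 9, Hdac7 had 19.8, 22.5 and 23.4 kb in WT and 21.9, 20.9 and 20.2 kb in DKO, with the groups overlapping again. The fold of the strongest peak at day 0 was 21.7, 19.5 and 23.2 in WT and 26.0, 22.9 and 21.2 in DKO. At day 3 this fold was 23.2, 24 and 18.9 in WT and 14.0, 16.4 and 12.4 in DKO. The genotypes overlapped at day 0 and were separate at day 3. At day 6 this fold was 17.7, 17.8 and 19.5 in WT and 10.3, 13.6 and 11.1 in DKO. At day 9 this fold was 24.2, 21.6 and 26.2 in WT and 23.2, 16.8 and 18.4 in DKO. The intronic summit shown lies 24.6 kb into the gene, in a region that all 12 WT libraries and 8 of the DKO libraries called, none of the latter at day 6.
Hdac7 intron, chr15:97819898-97819998, plus strand, GRCm38.p6: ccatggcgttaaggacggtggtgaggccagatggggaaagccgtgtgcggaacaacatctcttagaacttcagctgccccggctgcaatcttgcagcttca

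Hdac9, the class IIa brake on preadipocyte differentiation, spread 67 regions over 875 kb, and 1 of them, the intronic region chr12:34074070-34077800, was called in all 24 libraries. At day 0, Hdac9 had 6.67, 10 and 7.71 kb in WT and 8.28, 24.3 and 11.8 kb in DKO. At day 3, Hdac9 had 8.22, 10.4 and 3.39 kb in WT and 2.78, 6.28 and 4.19 kb in DKO. The groups overlapped on both days. At day 6, Hdac9 had 10.9, 8.77 and 8.99 kb in WT and 3.86, 3.77 and 2.76 kb in DKO. At day 9, Hdac9 had 7.31, 9.97 and 10.6 kb in WT and 11.2, 9.62 and 10.2 kb in DKO. DKO was far below WT at day 6 and overlapped it at day 9. The 1 region near a transcript start of Hdac9, chr12:34527715-34529546, 388 kb into the gene, had a call in all 6 libraries of day 0 and in 1 of the 18 later ones (DKO day 9 replicate 3, 0.328 kb). Its length at day 0 was 1.03, 0.685 and 0.671 kb in WT and 0.689, 1.82 and 0.945 kb in DKO. Of its 67 regions, 2 had a call in every library of day 0 and in none of day 9, and 3 the reverse (over all regions 1.29% and 2.54%), and a summit of each kind is shown.
Hdac9 day 0, chr12:34723101-34723201, plus strand, GRCm38.p6: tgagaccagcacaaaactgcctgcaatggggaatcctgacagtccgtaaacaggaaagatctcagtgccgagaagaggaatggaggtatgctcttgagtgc
Hdac9 day 9, chr12:34056401-34056501, plus strand, GRCm38.p6: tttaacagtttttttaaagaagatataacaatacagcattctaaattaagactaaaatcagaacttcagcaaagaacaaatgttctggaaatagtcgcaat
The day 0 summit is 194 kb into the gene (called in all 6 libraries of day 0 and in 0 at day 9) and 50.5% G or C. The day 9 summit is 861 kb into the gene (the reverse) and 26.7% G or C.

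Ncor1, the corepressor that recruits HDAC3, had a longer mark at the end than at the start. At day 0, Ncor1 had 3.17, 3.10 and 3.05 kb in WT and 2.46, 4.64 and 3.14 kb in DKO. At day 3, Ncor1 had 3.83, 4.04 and 2.77 kb in WT and 2.76, 2.84 and 2.31 kb in DKO. The genotypes overlapped on both days. At day 6, Ncor1 had 6.24, 6.05 and 7.10 kb in WT and 4.96, 4.66 and 3.57 kb in DKO. At day 9, Ncor1 had 3.89, 4.94 and 6.47 kb in WT and 7.51, 6.75 and 5.04 kb in DKO. All DKO libraries were lower at day 6 and the groups overlapped at day 9. The region at its start, chr11:62454722-62459722, called in all 24 libraries, also covers the start of Pigl on the other strand. The fold of the strongest peak there went from 16.5, 14.4 and 20.4 in WT and 21.2, 14.9 and 23.5 in DKO at day 0 to 25.8, 33.0 and 28.1 in WT and 31.9, 35.3 and 25.8 in DKO at day 9.

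**Figure D2:**
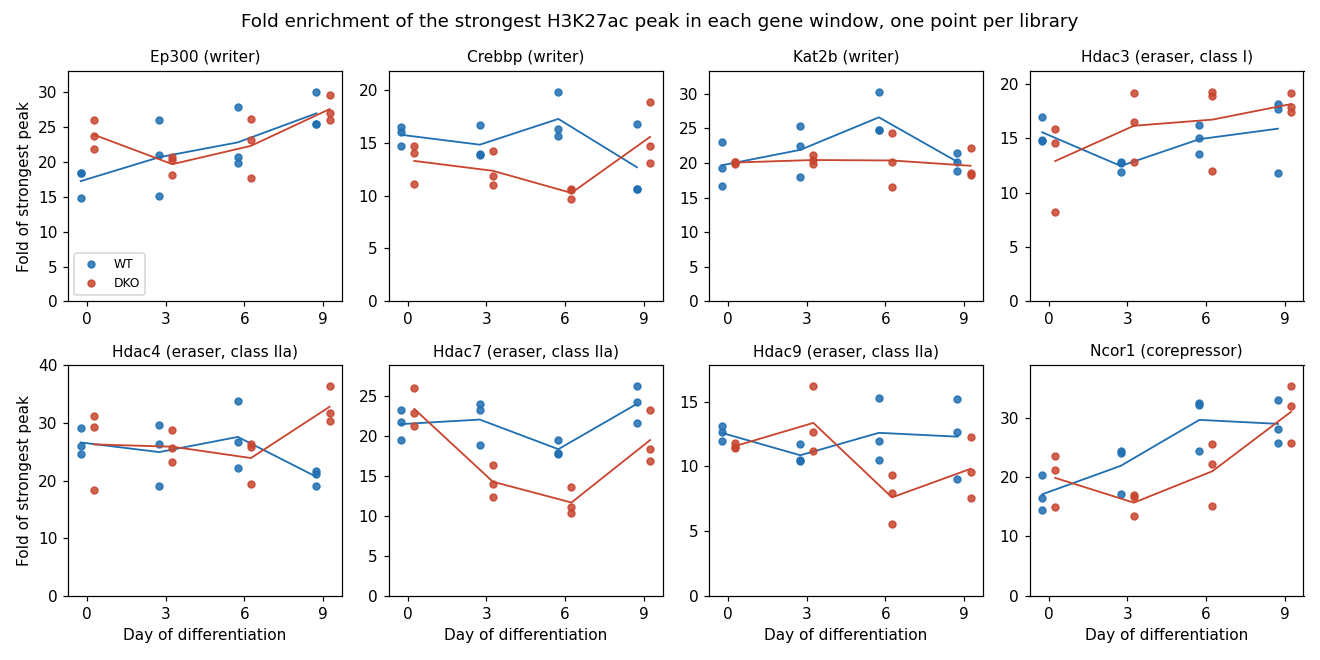
Fold enrichment over local background of the strongest peak in each gene window (vertical axis, from 0) against the day of differentiation, one point per library, WT in blue and DKO in red, with lines through the group means. Hdac7 is lower in DKO at days 3 and 6, Hdac4 is higher in DKO at day 9 (30.4 to 36.4 against 19.1 to 21.7), and Ncor1 and Ep300 end higher than they began.

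Whether loss of HMGN1 and HMGN2 shifted the mark at these genes was asked first over the 4 days together, with genotype permuted within each day (exact permutation test, two-sided, 160000 relabellings, adjusted over all 15183 genes). For covered length, 0 of 8 members passed at an adjusted p under 0.05, against 0.151% of all genes, and 0 passed unadjusted, against 9.87%. Kat2b was lower in DKO by 2.65 kb on average (17.2 kb in WT, 14.6 kb in DKO, exact p 0.111, adjusted p 0.624) and Hdac7 by 2.46 kb (19.9 against 17.4 kb, exact p 0.0877). The other 6 members differed by −0.818 kb (Hdac4) to 0.236 kb (Ep300), with exact p from 0.308 to 0.966. The median difference was −0.334 kb over the 8 members and −0.00708 kb over all genes tested. Without DKO day 0 replicate 2, Kat2b was lower by 3.35 kb (exact p 0.0202, adjusted p 0.165) and Hdac7 by 3.31 kb (exact p 0.00366, adjusted p 0.0881), where 19.9% of all genes passed unadjusted, and without WT day 3 replicate 3 Hdac7 was lower by 2.93 kb (exact p 0.0451, adjusted p 0.428). The call at Kat2b depended on how length was counted. With each peak replaced by its summit and 250 bp around it, Kat2b was lower by 2.89 kb (adjusted p 0.0211, exact permutation test), and per covered Mb of the library it was lower by 0.0286 kb (adjusted p 0.0301, exact permutation test). On these measures 1.02% and 5.70% of all genes were called lower.

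The fold of the strongest peak gave 1 call. Hdac7 was lower in DKO by 0.370 on the log2 scale (exact permutation test, p 0.00194, adjusted p 0.0425), and 5.35% of all genes passed in that direction and 0.290% in the other. The call ended at an adjusted p of 0.0599 without DKO day 0 replicate 2, of 0.0591 without DKO day 6 replicate 3 and of 0.0792 with promoter peaks alone, with differences of −0.367, −0.363 and −0.378. Crebbp, lower by 0.238, was the next of the 8 (exact p 0.0590, adjusted p 0.221). By rank, 0 members passed after adjustment, against 4.43% of all genes. Unadjusted, the strongest peaks of Ep300 (difference of −0.205 in log10 rank, exact p 0.0474) and Hdac3 (−0.175, exact p 0.0115) had lower rank numbers in DKO, where 14.4% of all genes did. The DKO lists of days 3 and 6 were on average shorter, and with the rank taken as a percent of the library's peaks 0 members passed unadjusted (Ep300 −0.127, exact p 0.194, and Hdac3 −0.0976, exact p 0.231). Without WT day 3 replicate 3 or without DKO day 6 replicate 3, Hdac3 alone had a lower rank number at that level. Hdac3 passed after adjustment without DKO day 0 replicate 2 (−0.206, adjusted p 0.0369, exact permutation test). The settings with a library left out were chosen after seeing the data, and the shares of all genes passing by rank in them were not counted. Hdac3 therefore cannot be set against other genes there.

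Day by day the direction of the difference between genotypes turned. With 3 libraries against 3 there are 20 relabellings and the smallest exact p is 0.1, so the groups are described by whether they overlap. At day 0, 1 of 8 members was higher in DKO without overlap (Ep300) and 0 were lower, while 18.4% of all genes were higher and 0.705% lower. At day 3, Hdac3 was lower and 0 were higher, against 10.8% and 0.856% of all genes. Without the shallow library of WT day 3, 7 members were lower at that day, all but Ep300, and so were 51.5% of all genes. At day 6, 6 of 8 members were lower (Crebbp, Kat2b, Hdac4, Hdac7, Hdac9 and Ncor1) and 0 higher, beside 59.6% and 0.0856% of all genes. Mean covered length at day 6 in WT and DKO was 20.6 ± 1.21 and 10.5 ± 3.3 kb at Kat2b, 18.8 ± 0.268 and 10.7 ± 3.02 kb at Hdac7, 10.8 ± 0.773 and 4.28 ± 1.77 kb at Hdac4, and 9.56 ± 1.19 and 3.46 ± 0.614 kb at Hdac9 (SD, n = 3). Genes with long coverage in WT were lower in DKO more often, 92.0% of those with 8 kb or more, the class of Kat2b, Hdac4, Hdac7 and Hdac9, and 60.2% of those with 1 to 2 kb, the class of Hdac3. The classes were formed from the same WT libraries of day 6 that were compared with DKO. The part of this gradient that comes from that choice was not tested. At day 9, Ep300 and Crebbp were higher and 0 were lower, where 29.3% and 2.08% of all genes were. Per covered Mb of the library neither was separate at day 9, Ep300 having means of 0.0583 kb in WT and 0.0561 kb in DKO, while Kat2b (0.361 and 0.318 kb) and Hdac7 (0.396 and 0.325 kb) were lower in DKO without overlap, as 13.5% of genes were, and 0 members higher (13.4%).

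Day 6 was the day on which the DKO libraries had the least covered length in all, so the members were also read against their libraries. The ratio of DKO to WT means had a median of 0.599 over the 8 members and 0.637 over all genes at that day, and 1.31 against 1.28 at day 0, 0.722 against 0.840 at day 3 and 1.11 against 1.14 at day 9. Per covered Mb of the library, the day 6 ratio was 1.67 at Ep300, 1.45 at Hdac3, 1.31 at Ncor1, 1.09 at Crebbp, 1.07 at Hdac7, 0.946 at Kat2b, 0.718 at Hdac4 and 0.692 at Hdac9, and 1.2 in the median gene. On this scale Hdac4 and Hdac9 remained lower in DKO without overlap, as 14.4% of genes did, and Ep300, Hdac7 and Ncor1 turned higher, as 37.8% did. Within the 20000 strongest peaks of each library, 4 members were lower (Crebbp, Kat2b, Hdac7 and Hdac9; 28.7% of genes) and 0 higher (1.07%). Of the 8, Hdac9 was the one lower without overlap on all 3 of these scales, and the share of all genes lower on all 3 was not counted. Within the 20000 strongest peaks its values were near the floor, at 1.70, 1.44 and 1.41 kb in WT and 0, 0.476 and 0 kb in DKO. Near transcript starts 5 members were lower (Ep300, Crebbp, Hdac4, Hdac7 and Ncor1; 45.1% of genes) and 0 higher (0.112%). Farther away 5 were lower (Kat2b, Hdac4, Hdac7, Hdac9 and Ncor1; 41.8%) and 0 higher (0.151%). By fold of the strongest peak 4 were lower at day 6 (Crebbp, Kat2b, Hdac7 and Hdac9; 45.2%) and 0 higher (0.724%). At day 9 the fold was higher in DKO at Hdac4 (21% of genes) and lower at 0 members (7.19%).

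**Figure D3:**
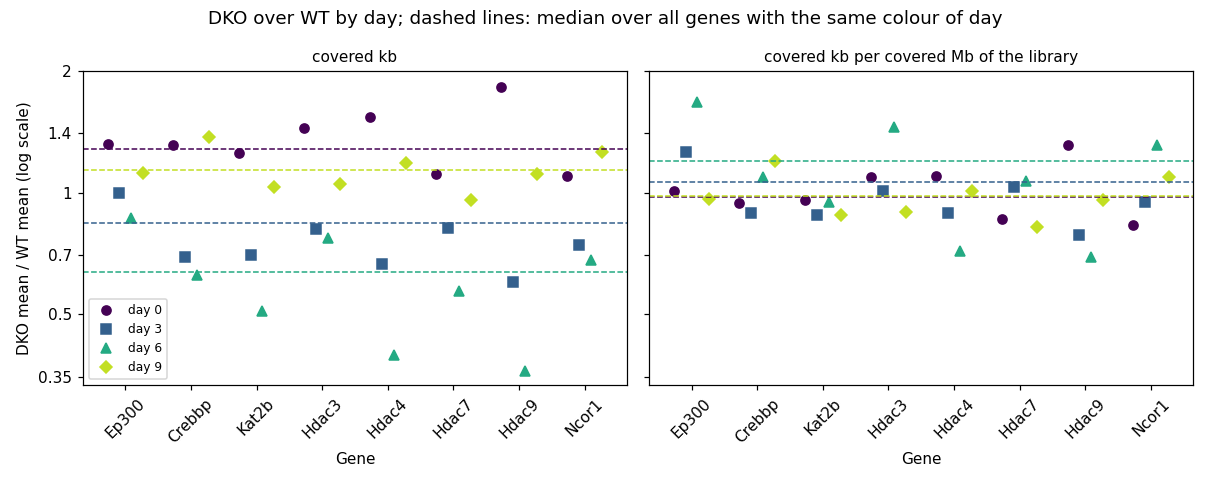
Ratio of the DKO mean to the WT mean (vertical axis, log scale) for each gene and day, for covered kb on the left and covered kb per covered Mb of the library on the right, with dashed lines at the median ratio of all genes on that day. On the left the day 6 points of Hdac4 (0.396) and Hdac9 (0.362) lie lowest, and on the right they remain below 1 (0.718 and 0.692) while Ep300 reaches 1.67.

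The course of differentiation was compared with both genotypes together, days permuted within genotype (exact permutation test, two-sided, 400 relabellings, smallest p 0.005). Between days 0 and 9 the covered length rose at 3 members, Crebbp by 1.52 kb (from 1.62 to 3.13 kb, adjusted p 0.0203, exact permutation test), Ncor1 by 2.51 kb (from 3.26 to 5.77 kb, adjusted p 0.0203) and Kat2b by 5.23 kb (from 15.0 to 20.2 kb, adjusted p 0.0481). It fell at 0 members. Among all genes 16.4% rose and 14.8% fell. Hdac4 was lower at day 9 by 3.90 kb (exact p 0.0350, adjusted p 0.0920), of which 1.51 kb remained without DKO day 0 replicate 2, and per covered Mb it fell (adjusted p 0.0148, exact permutation test), as 21.9% of genes did. The fold of the strongest peak rose at Ncor1 by 0.712 (log2, adjusted p 0.0225, exact permutation test) and at Ep300 by 0.430 (adjusted p 0.0343), as it did for 26.9% of genes, and Ep300 missed the threshold without DKO day 0 replicate 2 (0.399, adjusted p 0.0509, exact permutation test). The rank improved at Ncor1 (−0.551 in log10 rank, adjusted p 0.0298, exact permutation test; 10.4% of genes). Within the 20000 strongest peaks of each library the gains in length were smaller and none passed, at 0.394 kb for Crebbp (adjusted p 0.447, exact permutation test), 0.867 kb for Ncor1 (adjusted p 0.0957) and 2.28 kb for Kat2b (adjusted p 0.691). Ncor1 passed on length, fold and rank, and Crebbp and Kat2b on length.

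The single steps were tested in the same way. In the first step, from day 0 to day 3, Hdac7 fell by 5.88 kb (from 22.2 to 16.3 kb, adjusted p 0.0379, exact permutation test) and 0 members rose, where 25.2% of genes fell and 1.19% rose. Without the shallow library of WT day 3 the fall at Hdac7 was 4.93 kb (adjusted p 0.0602, exact permutation test), and with peaks of 250 bp around the summit it was 1.7 kb (adjusted p 0.472, exact permutation test). Per covered Mb its difference had the other sign (0.0295, adjusted p 0.329, exact permutation test). On that scaled measure Crebbp, Kat2b and Ncor1 rose in this step, and 18.8% of all genes did. From day 3 to day 6 no gene of the series passed after adjustment (0%), and unadjusted Hdac3 (by 0.540 kb) and Ncor1 (by 2.34 kb) were higher at day 6, both at the smallest exact p of 0.005, beside 19.2% of genes higher and 5.70% lower. From day 6 to day 9 again 0% of genes passed after adjustment. Unadjusted, Hdac7 was higher at day 9 by 6.67 kb (exact p 0.005) and Crebbp by 1.05 kb (exact p 0.0400), as were 30.7% of genes, and 0.270% were lower. Without DKO day 6 replicate 3 the difference at Crebbp was 0.792 kb (exact p 0.0750).

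The genotypes differed in the last step. The change from day 6 to day 9 was larger in DKO than in WT at Crebbp by 1.94 kb (exact permutation test of the difference, p 0.005, adjusted p 0.0306), where 30.5% of all genes passed in that direction, and by 1.42 kb without DKO day 6 replicate 3 (adjusted p 0.0526, exact permutation test). Per covered Mb the difference at Crebbp was 0.00542 kb (adjusted p 0.822, exact permutation test), and Ep300, Kat2b and Ncor1 had the other sign. Unadjusted, 6 of 8 members passed, as did 49.6% of all genes: Ep300, Crebbp, Kat2b, Hdac4, Hdac9 and Ncor1. At Hdac4 the genotypes went opposite ways, from 10.8 to 7.19 kb in WT and from 4.28 to 8.45 kb in DKO, each without overlap between the days (difference of 7.80 kb, exact p 0.02, adjusted p 0.0570). Per covered Mb of the library, however, Hdac4 went from 0.188 to 0.130 kb in WT and from 0.135 to 0.130 kb in DKO, so the directions were not opposite on that scale. In the first step the change differed at Hdac3, by −0.736 kb (exact p 0.0250, adjusted p 0.346; 12.7% of genes unadjusted). The difference at Hdac3 was −0.386 kb without DKO day 0 replicate 2 (exact p 0.0550), and without WT day 3 replicate 3 the members that passed unadjusted were 4 (Ep300, Hdac3, Hdac4 and Hdac9), beside 27.1% of all genes. Without DKO day 6 replicate 3, Ep300 did not pass in the last step. From day 3 to day 6 and from day 0 to day 9 it differed at 0 members, against 3.34% and 2.57% of genes.

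Peaks of all libraries that overlapped were joined into 169358 regions, of which 200 lay in the 8 windows: 67 at Hdac9, 49 at Hdac4, 24 at Kat2b, 20 at Hdac7, 16 at Crebbp, 15 at Ncor1, 7 at Ep300 and 2 at Hdac3. Of these, 17 were called in all 24 libraries and 86 in only 1 or 2. The number of calls per genotype was tested for the 90 regions called in 3 to 21 libraries, with genotype permuted within day. After adjustment 0 passed, as in the whole series (0%), and unadjusted 3 had fewer calls in DKO (3.33%, against 4.82% of all regions) and 0 had more (0.456%). Without WT day 3 replicate 3 the former were 5 of 89, against 8.37% of all regions. The smallest p belonged to chr1:92112948-92113353, within 1 kb of an internal transcript start of Hdac4, with calls in 7 WT libraries and 0 from DKO (exact permutation test, p 0.004, adjusted p 0.455). The others were the Kat2b intron whose summit is printed above (chr17:53576786-53579263, 12 against 7 libraries, exact p 0.02) and the Hdac4 intron (chr1:92130832-92131233, 5 against 0, exact p 0.0400). The Hdac7 intron, chr15:97816826-97820204, was at an exact p of 0.05. Of the other 4 with the smallest p, the Kat2b regions chr17:53642420-53643507 and chr17:53580127-53580677 had 9 against 5 and 4 against 0 calls (both exact p 0.0800), the Ncor1 region chr11:62330222-62330950 had 10 against 5 (exact p 0.0990) and the Hdac4 intron chr1:92129329-92130632 had 12 against 9 (exact p 0.1). At day 6, 11 of the 200 regions (5.50%) had a call in all 3 WT libraries and in none of the DKO libraries, against 4.55% of all regions, and 0 the other way round (0.0390%). They were spread over 6 genes, with 4 at Hdac9, 3 at Hdac4 and 1 each at Crebbp, Kat2b, Hdac7 and Ncor1.

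Day-specific regions lay in 3 genes. There were 4 regions with a call in every library of day 0 and in none of day 9 (2.0%, against 1.29% of all regions), of which 2 lay in Hdac9 and 2 in Hdac4. The reverse held for 5 (2.50%, against 2.54%), 3 at Hdac9 and 2 at Kat2b. At Hdac9 the day 0 regions chr12:34722020-34723867 and chr12:34696080-34697508 went from calls in all 6 libraries to none while chr12:34056226-34056778 and chr12:34844076-34844971 went the opposite way. At Hdac4 the region chr1:92079445-92083021 had a call in every library of days 0 and 3, in 1 library of day 6 and in none of day 9. At Kat2b the adjoining regions chr17:53642420-53643507 and chr17:53643534-53645672 were gained, the former in 3 of 3 WT and 1 of 3 DKO libraries at day 3.

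**Figure D4:**
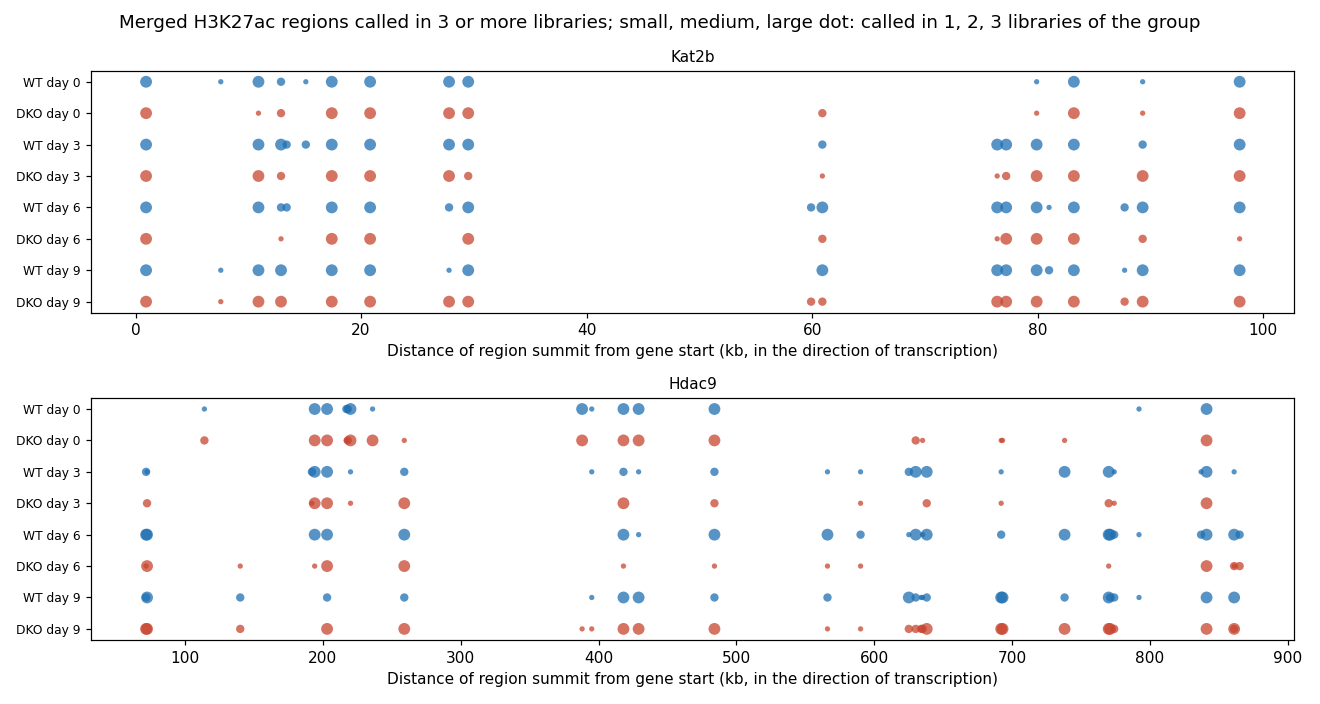
Merged H3K27ac regions of Kat2b and Hdac9 called in 3 or more libraries, placed by the distance of their summit from the gene start in kb (horizontal axis), one line for each genotype and day, with small, medium and large dots for calls in 1, 2 and 3 of the 3 libraries. At Kat2b the dots near 77.2 kb are absent at day 0, and at Hdac9 those at 194 kb leave by day 9 while those at 861 kb appear.

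In a window of the same length around the summit of each region, 4 sets of letters were looked up on both strands. The AP-1 motif (TGACTCA or TGAGTCA) stood in 2 of the 200 windows (1.00%, against 1.59% of all regions), the C/EBP motif (TTGCGCAA or TTGCATCA) in 0 (0.211%), the glucocorticoid receptor motif (ACANNNTGT) in 6 (3.00%, against 3.21%) and the PPAR direct repeat (AGGTCAAAG) in 1 (0.500%, against 0.167%). None of the 14 named regions held one of them in its window.

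The wider set of acetylation genes, 38 other writers, erasers, corepressor subunits, readers, class IIa partners and enzymes of acetyl-CoA supply, was read against the same shares of all genes. By genotype over the 4 days, 0 of 38 passed after adjustment (0.151% of all genes), and unadjusted 1 did (9.87%), the H4K16 acetyltransferase Kat8 (higher in DKO by 0.361 kb, exact p 0.0443). Next came the corepressor subunit Tbl1x (−2.37 kb, exact p 0.0507), the deacetylases Sirt1 (0.356 kb, exact p 0.107) and Hdac2 (−0.174 kb, exact p 0.114). Between days 0 and 3, 10 of 38 fell and 0 rose after adjustment, where 25.2% and 1.19% of all genes did. Among them were Mef2c, a target of class IIa enzymes (by 11 kb), and Hdac5, the class IIa enzyme that is not a member (by 8.16 kb), beside Kat7, Kat8, Hdac1, Hdac6, Sirt2, Brd3 and Mef2a. Between days 0 and 9, 5 rose (16.4% of all genes): the coactivator Ncoa1 (by 5.09 kb), the corepressor subunit Tbl1xr1 (by 3.83 kb), the corepressor Nrip1 (by 3.02 kb) and the acetyl-CoA producing enzymes Acly (by 2.88 kb) and Acss2 (by 2.15 kb). Over the same interval 7 fell (14.8% of all genes), among them Mef2c (by 9.64 kb), Hdac5 (by 4.45 kb), Mef2a, Kat7, Brd3 and Sirt2. Without DKO day 0 replicate 2, 15 rose and 7 fell, but the shares of all genes in that setting were not counted, so these counts cannot be set against other genes. From day 3 to day 6, 9 of 38 were higher and 0 lower at an unadjusted p under 0.05 (19.2% and 5.70% of all genes), and from day 6 to day 9 13 and 0 (30.7% and 0.270%). At day 6, 27 of 38 were lower in DKO without overlap and 1 higher (59.6% and 0.0856% of all genes), and at day 9, 19 were higher and 0 lower (29.3% and 2.08%).

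Likeness between genes was measured as Pearson's r of covered kb per covered Mb over the 24 libraries, which share days, genotypes and depth. Both genes of a pair are divided by the same library total, so genes whose length changes little move together on this scale. Ep300, for example, was highest (0.120 kb) in the library with the least covered length, DKO day 6 replicate 3. The part of each r that comes from this shared total was not tested. Ep300 was most like Rhob (r = 0.968) and Rcor3 (0.966), Ncor1 like Mapk6 (0.961) and Tex45 (0.960), Kat2b like Ip6k2 (0.884) and Catsperb (0.883), and Hdac9 like Adamts17 (0.879) and Tnfrsf21 (0.835). Hdac7 was most like S100a2 (0.875) and Lsp1 (0.866), Crebbp like Tsc22d3 and Ccdc85c (both 0.85), Hdac3 like Cyth2 (0.845) and Rpl27 (0.843), and Hdac4 like Antxr1 (0.834) and Slc25a36 (0.807). Between members, Hdac3 and Ncor1 had the highest value (0.722) and Ep300 and Hdac9 the lowest (−0.650).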

How the data were processed

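H3K27ac ChIP-seq peak lists of 24 libraries were analysed, 3 in each of 2 genotypes at 4 days, and 16 input libraries were not used here. According to the submitters' processing notes, the authors used bcl2fastq 2.17, cutadapt 1.18, BWA 07.17 and MACS2 2.1.1.20160309 on build mm10. Peaks were called per library, without pooling. The deposited lists give for each peak the fold enrichment at the summit, and the −log10 p-value and −log10 q-value (the lowest −log10 q is about 2.0). Which input served as control, and the MACS2 settings, are not given in the sources used here. No read counts over fixed regions are in these lists, so the study's read-based comparison was not repeated, and tests were run on lengths, folds and ranks of called peaks, which move with how much was called in a library.

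Windows were the GENCODE gene span with 5 kb upstream. Covered kb, the highest fold (log2) and the best q rank (log10) were computed for all protein-coding genes with a peak in at least 3 libraries. Tests were exact permutation tests with Benjamini-Hochberg adjustment over all genes or regions at 0.05, and were tested on simulated data. Members, gene lists and motifs were chosen with earlier results of these data known. All 8 members were named, as were the other acetylation genes that passed or came nearest (one is not reported here), the regions with the smallest p or the highest −log10 q among day-specific ones, and the 2 most like genes of each member. Same-numbered WT and DKO libraries of a day had correlations of −0.0985 to 0.148 (1 of 12 over 0.1), so replicate numbers were not taken to pair samples. Sequences came from GRCm38.p6 and RefSeq, of which 7 of 8 members had a promoter entry. Python 3.11.15, NumPy 2.4.6, SciPy 1.17.1, pandas 2.3.3 and Matplotlib 3.10.9 were used.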

Additional observations from a re-analysis of the deposited data

Results flagged for a closer look

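A change in covered length between days differed between the genotypes at 7 places, each by an exact permutation test of the difference itself at an unadjusted p under 0.05. From day 6 to day 9 the change in DKO exceeded that in WT by 0.843 kb at Ep300, 1.94 kb at Crebbp, 10.8 kb at Kat2b, 7.80 kb at Hdac4, 7.12 kb at Hdac9 and 3.41 kb at Ncor1. Of these, Crebbp alone passed after adjustment over all genes (adjusted p 0.0306, exact permutation test), and the other 5 had adjusted p from 0.0570 to 0.0782. Between days 0 and 3 the change at Hdac3 was −0.736 kb in DKO relative to WT (adjusted p 0.346, exact permutation test). Such differences were common in the series, where 49.6% and 12.7% of all genes passed unadjusted in these steps.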

How the results depend on the processing

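Alternatives to the window, the peaks used, the scale and the libraries were tried, and those for the change between days by genotype, for fold and rank, for single days with a replicate left out, for regions with a library left out and without DKO day 6 replicate 3 were chosen after seeing the data, as was the comparison of fold between days 0 and 9. Peaks are called per library, so lengths and folds move with how much was called, and leaving out replicates leaves 36 relabellings of a step, whose smallest p is 0.0556, so that no member could pass there. Where a call changed, the cause was not tested beyond this. Replicate numbers did not pair the samples, and the replicate block is given as a fit on the shared number only.

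Over the 4 days, the direction turned at Hdac3, Hdac4, Hdac9, Ncor1 and Crebbp. Hdac3 became −0.00825 kb with −log10 q of at least 5, −0.00775 with the 20000 strongest peaks, −0.0635 without upstream, −0.0442 with 20 kb upstream, −0.0803 without DKO day 0 replicate 2, −0.00588 without WT day 3 replicate 3, and ranged from −0.121 to 0.193 leaving out a replicate (−0.0503 without replicate 1). With the 20000 strongest peaks Hdac4 became 1.1, Hdac9 0.541 and Ncor1 0.0238. Per covered Mb Crebbp became 0.00169 and Ncor1 0.00694. Crebbp was 0.00208 without upstream, 0.0956 without DKO day 6 replicate 3 and 0.134 without replicate 3, and the values leaving out a replicate or library ran from −0.176 to 0.134 at Crebbp, −1.52 to 0.384 at Hdac9 and −0.597 to 0.163 at Ncor1. Members called were 1 adjusted and 2 unadjusted both with 250 bp around summits and per covered Mb, 2 unadjusted without DKO day 0 replicate 2, 1 without WT day 3 replicate 3 and 0 to 1 leaving out a replicate.

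In the step to day 3, 0 members fell with −log10 q of at least 5, the 20000 strongest peaks, 250 bp, per covered Mb, without WT day 3 replicate 3, leaving out any replicate and with the replicate block, 2 fell with 20 kb upstream and 3 rose per covered Mb, where Ep300 became 0.0141 and Hdac7 0.0295. Between days 0 and 9, 0 rose with the 20000 strongest peaks, leaving out a replicate or with the replicate block, 1 rose with 250 bp, and 1 fell per covered Mb and 1 with 20 kb upstream. Unadjusted, 1 member was higher from day 3 to day 6 with −log10 q of at least 5, 250 bp or 20 kb upstream, and 0 leaving out a replicate. From day 6 to day 9 it was 1 with the 20000 strongest peaks, with the block or without DKO day 6 replicate 3, and 0 per covered Mb or leaving out a replicate. The change by genotype from day 6 to day 9 passed unadjusted at 3 members with the 20000 strongest peaks, 2 per covered Mb and 0 leaving out a replicate or with the block, and adjusted at 0 in these and without DKO day 6 replicate 3. Per covered Mb Ep300 became −0.0418, Kat2b −0.0232 and Ncor1 −0.0267. In the first step it passed at 0 in all alternatives except 4 without WT day 3 replicate 3. With the block, this change by genotype had only 1 difference per replicate number. That allows too few sign changes for a p under 0.05, so no member could pass with the block in either step.

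The fold call by genotype went to 0 with promoter peaks, without DKO day 0 replicate 2, without DKO day 6 replicate 3, leaving out a replicate and with the block. The rank gave 1 adjusted call without DKO day 0 replicate 2, and unadjusted 0 as percent of peaks, 1 without WT day 3 replicate 3, without DKO day 6 replicate 3 or with the block, and 0 to 2 leaving out a replicate. The fold from day 0 to day 9 rose at 1 without DKO day 0 replicate 2 and at 0 leaving out a replicate or with the block. Per covered Mb, 2 members were lower and 0 higher at day 0, and 0 were lower at day 3, days for which the shares of all genes were not counted. On that scale 2 were lower and 3 higher at day 6 (14.4% and 37.8% of all genes). At day 9 it was 2 lower and 0 higher (13.5% and 13.4%). With the 20000 strongest peaks 0 members were higher at day 0 and 0 lower at day 3. Leaving out a replicate gave 1 to 5 higher at day 0, 1 to 7 lower at day 3, 0 to 1 lower and 2 to 4 higher at day 9, and 7 were lower at day 3 without WT day 3 replicate 3. Regions with fewer DKO calls numbered 0 with the 20000 strongest peaks, 5 without WT day 3 replicate 3 and 0 to 2 leaving out a replicate. Day 9 regions numbered 14 at 5 of 6 libraries and 7 to 9 leaving out a replicate. Of the other acetylation genes, 7 passed by genotype per covered Mb, with both directions counted together. The share of all genes for both directions together was not counted. In their first step 0 fell with the 20000 strongest peaks, leaving out a replicate or with the block, 8 fell without DKO day 0 replicate 2, and 6 fell and 6 rose per covered Mb. Between days 0 and 9, 0 passed with the 20000 strongest peaks, leaving out a replicate or with the block, 9 rose and 11 fell per covered Mb and 15 rose without DKO day 0 replicate 2. Per covered Mb, 5.70% of all genes were lower in DKO over the 4 days, 18.8% rose in the first step and 21.9% fell between days 0 and 9. Apart from these shares and those given in the Results, shares of all genes or regions were not counted for the alternatives. The remaining counts of members, regions and acetylation genes in this section therefore cannot be set against other genes or regions.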
